A study of Mus musculus with 26 samples.

Results

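The contactin and L1 families are 10 adhesion molecule genes of neurons: the L1 family genes L1cam, Chl1, Nrcam and Nfasc, and the contactin genes Cntn1, Cntn2, Cntn3, Cntn4, Cntn5 and Cntn6. They were found by symbol in the probe table of the array, where 26 probe sets carry 1 of these symbols, and each gene is described by its brightest probe set over all arrays, with the others checked. They are 10 of 18193 genes with a single symbol, and all 10 were bright enough to be among the 13951 genes tested. RNA of sorted mouse retinal neurons, taken at postnatal day 6, was read on Affymetrix arrays of 1 colour. Each of 13 subtypes had 2 arrays, from different litters.

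The 2 bipolar groups were ON bipolar cells, sorted as GFP+ cells, and MP bipolar cells, sorted as CFP+ cells without the VC1.1 antigen. The 6 ganglion cell groups were all Thy1+. BD, J, W3 and W7 ganglion cells carried YFP, Cdh3 ganglion cells carried GFP, and Isl2 ganglion cells were bgal+. The 5 amacrine groups were starburst cells (Kusabira Orange+ and Thy1-negative), PaxCre GABAergic cells (GFP+), MP cells (CFP+ and VC1.1+), AII cells (GFP+) and J glycinergic cells (YFP+). Mice were C57BL/6 except for MP cells (a mix of C57BL/6 and CD1), AII cells (Swiss Webster x C57BL/6) and Cdh3 ganglion cells, whose labels read Swiss Webster x C57BL/7 for replicate 1 and Swiss Webster x C57BL/8 for replicate 2. Each reporter line marks the cells in which its own construct is active, and the J and MP lines each gave 2 of the groups. RNA went through 2 rounds of amplification before biotin labelling.

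L1 family proteins are immunoglobulin-type molecules that cross the membrane once and bind ankyrins inside the cell, which ties them to the spectrin skeleton of axons. Contactins have a similar outer part but hang on the membrane by a lipid anchor, and work through partners such as contactin-associated proteins, receptor phosphatases, amyloid precursor proteins and each other. In the mouse visual system, Cntn4 is known for the targeting of ganglion cell axons in the brain, and Cntn5 for the layering of dendrites of direction-selective ganglion cells.

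Levels are given as log2(intensity + 16) after quantile normalization, a scale with a floor of 4.09 and an overall median of 6.14, and a difference of 1 is a doubling. Fold changes on this scale understate the change of dim genes, and levels are compared within a gene and not between genes. A gene passed a comparison if its limma p-value, adjusted by the Benjamini-Hochberg method over all 13951 genes, was under 0.05 and the difference was at least 1 log2 unit. As deposited, the 12 ganglion cell arrays had medians of 61.5 to 74.8 and the 14 other arrays 37.4 to 47.1, so that the ganglion cell class and a set of arrays on another scale cannot be told apart. Without normalization between these sets the median gene was 0.53 log2 units higher in ganglion than in amacrine cells, whichever of 2 such settings was used, and every difference below is relative to a median gene near 0.

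Means of marker lists followed the labels. The mean of 8 ganglion cell markers ran between 10.93 and 11.51 over the ganglion cell subtypes, against 5.77 to 7.35 over the amacrine subtypes, and amacrine and bipolar markers were likewise highest in their own class. Single markers did not all do so. Thy1 was 11.67 in MP bipolar, 10.38 in MP amacrine and 9.98 in starburst cells, against 10.69 to 11.77 in ganglion cells. Stmn2 was 11.38 in PaxCre and 11.15 in starburst cells, against 11.97 to 12.27 in ganglion cells. Markers of other cells moved with the groups too. The mean of 9 microglia markers ran between 7.62 (W3) and 10.27 (J) over ganglion cells, against 5.48 to 7.03 over amacrine cells, and all 9 passed as higher in ganglion cells. Vessel markers were highest in J ganglion cells at 7.77, and rod markers were 8.59 and 9.20 in ON and MP bipolar cells and up to 9.18 among amacrine cells, in the MP cells. All 3 horizontal cell markers tested passed as higher in Cdh3 than in the other ganglion cells (median difference 2.30). Their part in the results was not tested, and the counts below are also given without the J ganglion and MP amacrine arrays, a setting chosen after the markers were seen. In sorted pools, fewer cells of a type and less RNA per cell cannot be told apart.

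Chl1, which encodes the close homologue of L1, was the member that differed most between classes. Its level in the 12 ganglion cell arrays was 11.27 at the lowest, 11.61 at the median and 11.82 at the highest, against 6.40, 7.79 and 8.35 in the 10 amacrine arrays. It was 5.14 and 5.82 in ON bipolar cells and 5.17 and 6.45 in MP bipolar cells. All 6 ganglion cell subtypes thus formed a narrow band, and the amacrine arrays all lay below it with no overlap. Ganglion cells exceeded amacrine cells by 4.05 ± 0.14 log2 units (SE, 16.6-fold, adjusted p = 1.57e-14), and bipolar cells lay 5.91 ± 0.19 log2 units below ganglion cells (60.1-fold lower, adjusted p = 1.32e-14). On the next brightest of its 4 probe sets these differences were 0.00 and 0.027. J ganglion cells, with the highest microglia marker mean, had 11.58 and 11.74, and W3 ganglion cells, with the lowest, had 11.63 and 11.68. Between bipolar and amacrine cells the difference was -1.85 ± 0.19 (adjusted p = 5.06e-07), with MP bipolar replicate 2 at 6.45 inside the amacrine range.

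L1cam, the founding L1 family gene, was high in all ganglion cells and in some amacrine subtypes on its brightest probe set. The ganglion cell arrays had 10.67 at the lowest, 11.34 at the median and 11.65 at the highest. PaxCre amacrine cells had 11.13 and 11.09, and J amacrine cells had 11.10 and 11.03. Starburst cells had 8.81 and 8.95, MP amacrine cells 8.89 and 9.24, and AII cells 8.83 and 8.51. The amacrine subtypes therefore fell on both sides of a wide gap: PaxCre and J cells stood among the ganglion cells, from which their neighbours in the order did not differ beyond their spread, while the mean of MP amacrine cells, the next below, was 1.91 log2 units under that of J ganglion cells, the lowest above the gap. Bipolar cells had the lowest levels, 6.49 and 6.70 in ON cells and 7.25 and 7.54 in MP cells, below every other array. The class difference was 1.56 ± 0.09 between ganglion and amacrine cells (adjusted p = 1.46e-11), -4.32 ± 0.12 between bipolar and ganglion cells (adjusted p = 2.25e-15) and -2.76 ± 0.12 between bipolar and amacrine cells (adjusted p = 7.55e-12). The first was 0.91 with C57BL/6 subtypes alone, and the last was 0.10 on the other probe set.

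Nrcam, whose product gathers at axon initial segments and nodes, was set apart by a few low subtypes. AII amacrine cells had 6.42 and 6.99 and MP amacrine cells 8.26 and 7.76, whereas starburst cells had 10.86 and 10.98, J amacrine cells 10.74 and 11.08, and PaxCre cells 10.68 and 10.68. Ganglion cell arrays lay between 9.73 and 10.78. The bipolar arrays, at 8.84 to 9.26, lay below all ganglion cell arrays and inside the amacrine range. Ganglion cells exceeded amacrine cells by 0.91 ± 0.09, short of the 1 log2 unit asked for despite an adjusted p of 2.53e-08, and bipolar cells lay 1.30 ± 0.12 below ganglion cells (difference -1.30, adjusted p = 1.52e-08). On the next brightest probe set that difference had the other sign, +1.20.

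Nfasc, the gene of neurofascin, had no class difference that passed on its brightest probe set. It was highest in AII amacrine cells, at 11.09 and 10.94, and in ON bipolar cells, at 10.75 and 10.31. The other 11 subtypes had means of 8.57 (PaxCre) to 9.93 (Cdh3 ganglion). Its ganglion to amacrine difference was 0.25 log2 units, with a 95% interval of -0.05 to 0.55. On its next brightest probe set that difference was -1.14, and bipolar cells exceeded ganglion cells by 2.04. On its dimmest probe set these differences were -2.09 and 1.44. All of these passed with adjustment over all probe sets.

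**Figure D1:**
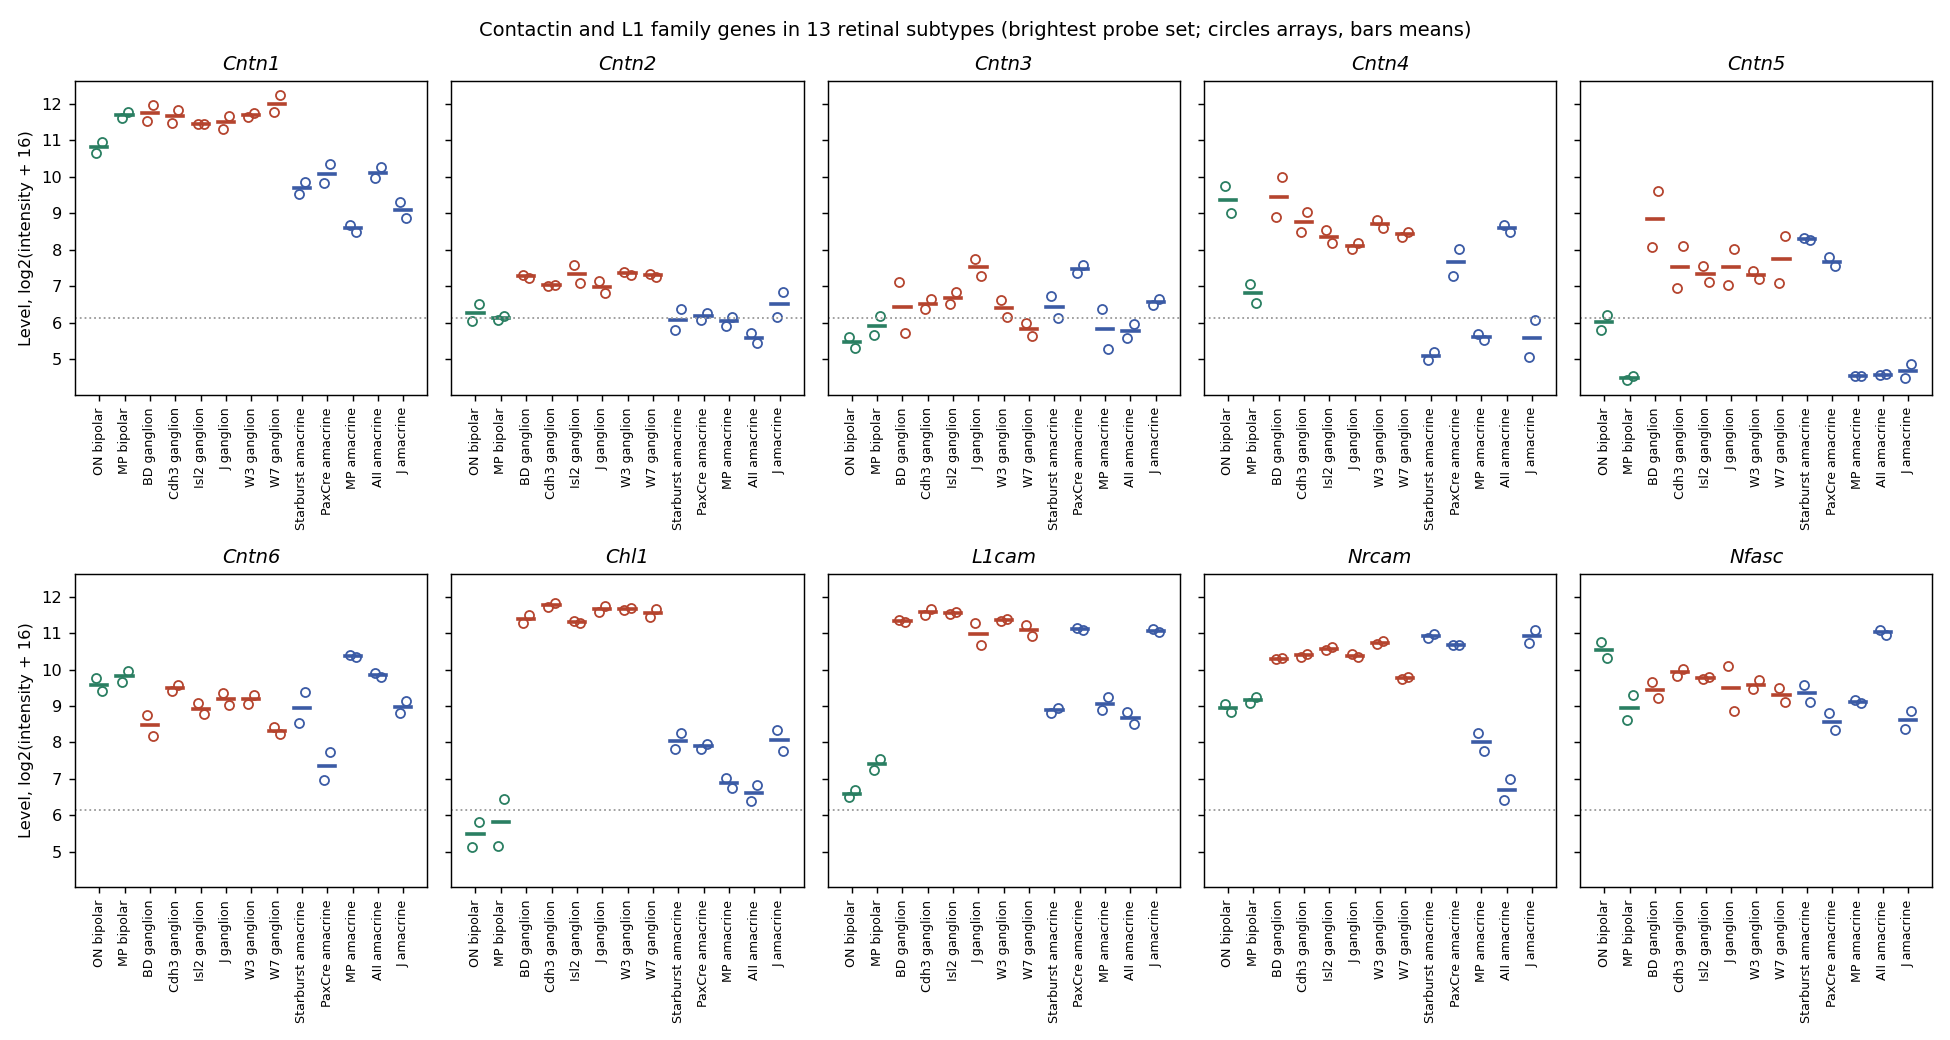
Levels of the 10 genes, log2(intensity + 16), in each of 26 arrays (circles) with subtype means (bars), 1 panel a gene, bipolar subtypes in green, ganglion cells in red and amacrine cells in blue; the dotted line is the overall median of 6.14. Chl1 forms a band of 11.30 to 11.77 in the 6 ganglion cell subtypes, while Nrcam, L1cam, Cntn4, Cntn5 and Cntn6 spread widely among amacrine subtypes.

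Among contactins, Cntn1, the member also known as F3, separated amacrine cells from the others. Bipolar arrays had 10.65 to 11.77 and ganglion cell arrays 11.31 to 12.24, against 8.49 to 10.34 in amacrine arrays, with no overlap of either with amacrine cells. The difference was 2.16 ± 0.10 between ganglion and amacrine cells (4.47-fold, adjusted p = 1.79e-12) and 1.74 ± 0.14 between bipolar and amacrine cells (3.34-fold, adjusted p = 2.94e-08). On the next brightest of its probe sets the first of these was 0.19 and the second 0.01, and neither passed.

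Cntn4 was high in ganglion cells, in ON bipolar cells and in AII and PaxCre amacrine cells. ON bipolar cells had 9.75 and 9.0 and MP bipolar cells 7.06 and 6.55. The ganglion cell arrays had 8.02 at the lowest, 8.52 at the median and 9.99 at the highest. Among amacrine cells, AII cells had 8.68 and 8.5 and PaxCre cells 7.29 and 8.03, whereas starburst, MP and J cells had 4.98 to 6.06, below the overall median. The class difference was 2.13 ± 0.16 between ganglion and amacrine cells (adjusted p = 8.16e-10) and 1.58 ± 0.22 between bipolar and amacrine cells (adjusted p = 1.73e-05), although arrays of both pairs overlapped. On the other probe set the bipolar to amacrine difference was 0.46, and it did not pass there or with subtype means as units.

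Cntn5, read by a single probe set, was on or close to the floor in some subtypes. MP bipolar cells had 4.42 and 4.55, MP amacrine cells 4.54 and 4.53, AII cells 4.56 and 4.58, and J amacrine cells 4.48 and 4.86. BD ganglion cells had the highest mean, from 8.07 and 9.62, followed by starburst cells with 8.32 and 8.26. The other ganglion cell arrays lay between 6.96 and 8.38, PaxCre cells had 7.79 and 7.56, and ON bipolar cells 5.81 and 6.22. The class difference was 1.77 ± 0.20 between ganglion and amacrine cells (adjusted p = 2.88e-07) and -2.47 ± 0.27 between bipolar and ganglion cells (adjusted p = 2.19e-07). With C57BL/6 subtypes alone the first was 0.88, short of 1 log2 unit, and with subtype means as units neither passed.

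Cntn6, the gene of the Notch ligand also called NB-3, ran the other way. MP amacrine cells had 10.40 and 10.35 and AII cells 9.90 and 9.80, while PaxCre cells had 6.97 and 7.74. Bipolar arrays had 9.40 to 9.97 and ganglion cell arrays 8.18 to 9.57. No class difference passed, the largest being 0.77 ± 0.17 between bipolar and ganglion cells. The rod marker means of amacrine subtypes were 9.18 in MP, 7.93 in AII, 7.58 in PaxCre, 7.18 in J and 6.63 in starburst cells. Their part in the result was not tested.

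Cntn2, known as TAG-1 and as a marker of growing axons, and Cntn3 were near the overall median. Cntn2 had 6.82 to 7.58 in ganglion cell arrays and 5.44 to 6.85 in amacrine arrays, a difference of 1.14 ± 0.11 (adjusted p = 2.19e-08) with 1 J amacrine array inside the ganglion cell range. Bipolar arrays, at 6.04 to 6.51, lay below all ganglion cell arrays (difference -1.01 ± 0.14, adjusted p = 5.98e-06), and this call was lost without replicate 1 of MP bipolar, ON bipolar, Isl2 ganglion or J ganglion cells. Cntn3 had its highest means in J ganglion cells (7.52) and PaxCre amacrine cells (7.48), and no class difference passed on this probe set. On its other probe set ganglion cells exceeded amacrine cells by 1.69, and the bipolar minus ganglion difference was -1.75. Both passed with adjustment over all probe sets.

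In ganglion cells against amacrine cells, 6 of 10 members passed and all 6 were higher (Cntn1, Cntn2, Cntn4, Cntn5, Chl1 and L1cam), beside 24.8% of all genes that passed and 15.8% that passed as higher (9% as lower). The median difference of the 10 members was 1.35, against 0.00 over all genes. In bipolar against amacrine cells 4 passed, 2 in each direction, beside 10.4% of all genes, 4.67% as higher and 5.7% as lower. In bipolar against ganglion cells 5 passed and all were lower (Cntn2, Cntn5, Chl1, L1cam and Nrcam), beside 29.6% of all genes, 18.5% as lower and 11.2% as higher. Without the J ganglion and MP amacrine arrays these counts were 6, 5 and 5, and shares of all genes were not counted in that setting. These comparisons share arrays and are not independent of each other. Errors come from replicates within subtypes, so the differences hold for the subtypes sampled; with subtype means as units, 3 members passed between bipolar and ganglion cells.

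**Figure D2:**
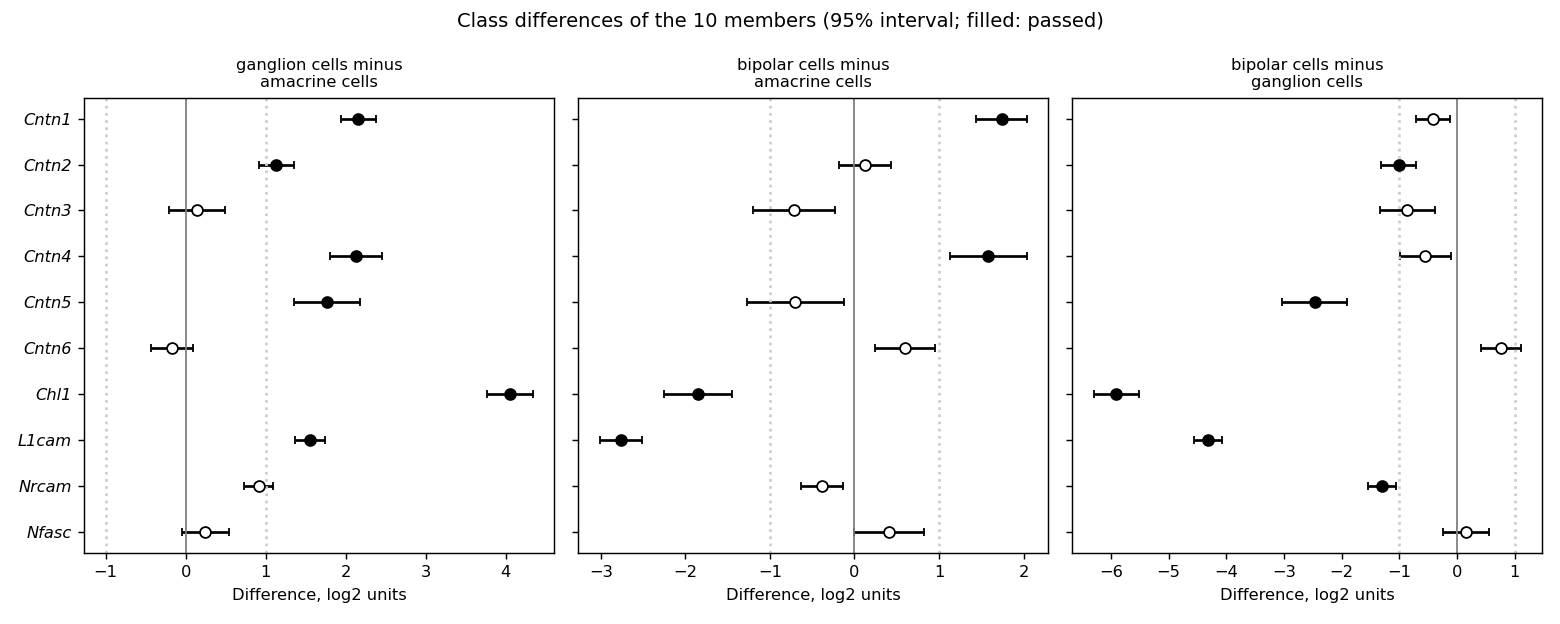
Differences between classes in log2 units with 95% intervals for the 10 genes, in 3 panels (ganglion minus amacrine, bipolar minus amacrine, bipolar minus ganglion cells); filled points passed. Chl1 lies at 4.05, -1.85 and -5.91 in the panels from left to right, and L1cam at 1.56, -2.76 and -4.32.

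Within classes, Nrcam, Cntn5, Cntn4 and Cntn6 varied most among amacrine cells. The range of the 5 amacrine subtype means was 4.21 log2 units for Nrcam, 3.75 for Cntn5, 3.49 for Cntn4 and 3.03 for Cntn6, with a median of 2.44 over the 10 members against 0.92 over all tested genes. Among the 6 ganglion cell subtypes the median range of the members was 0.80, against 0.58 over all genes, from 0.37 for Cntn2 and 0.47 for Chl1 to 1.54 for Cntn5 and 1.71 for Cntn3. Between the 2 bipolar subtypes the members' median difference in size was 0.63, against 0.23 over all genes, with 2.57 for Cntn4, 1.57 for Nfasc and 1.53 for Cntn5. These ranges span 5, 6 and 2 subtypes and are not alike between classes.

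GABAergic amacrine cells (starburst and PaxCre) were set against glycinergic ones (AII and J), where PaxCre and J transmitters come from the labels, and those of starburst and AII cells from general knowledge. Marker RNA did not split J cells off in the same way. Gad1 was 12.39 in starburst, 12.30 in PaxCre, 10.82 in J and 5.75 in AII cells. Slc6a9 was 6.01, 8.29, 11.69 and 11.75 in the same order. Of the members 3 passed, 2 as higher and 1 as lower, beside 9% of all genes, 5.74% as higher and 3.26% as lower. Cntn5 was higher by 3.36 ± 0.33 (10.3-fold, adjusted p = 5.86e-07), with 7.56 to 8.32 in GABAergic arrays and 4.48 to 4.86 in glycinergic arrays, which did not overlap. The difference of Cntn6 was -1.26 ± 0.20 (adjusted p = 0.000168), with overlapping arrays: starburst and J cells had means of 8.96 and 8.98, and PaxCre cells 7.35. With C57BL/6 subtypes alone it was -0.83, and that call was lost there and with subtype means as units. Nrcam was higher by 1.99 ± 0.14 (adjusted p = 1.19e-08), but this rested on AII cells: with C57BL/6 subtypes alone, which leaves J cells as the glycinergic group, the difference was -0.11.

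AII amacrine cells are narrow-field glycinergic cells that carry rod signals to cone pathways. Against the other amacrine subtypes 6 members passed, 2 as higher and 4 as lower, beside 16.2% of all genes, 5.73% as higher and 10.5% as lower. Cntn4 (2.60 ± 0.29, 6.08-fold, adjusted p = 2.20e-06) and Nfasc (2.11 ± 0.26, 4.31-fold, adjusted p = 7.91e-06) were higher in AII cells and overlapped with no other amacrine array. Nrcam was 10.7-fold lower (-3.42 ± 0.16, adjusted p = 6.16e-11), also without overlap, and Cntn5 (-1.72), Chl1 (-1.10) and L1cam (-1.36) were lower with overlap. The Chl1 call was lost without AII replicate 1, with a pseudocount of 64 and with the median over probe sets. On the next brightest probe sets the differences of Chl1, Cntn4 and L1cam were -0.52, 0.10 and 0.11, and none of these passed. Of 8 Müller glia markers 5 passed as lower in AII cells (median difference -1.07), and their part in the result was not tested.

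Starburst cells are cholinergic and GABAergic cells of the direction-selective circuit, and in them 4 members passed against the other amacrine cells, 2 in each direction, beside 10.9% of all genes, 5.32% as higher and 5.61% as lower. Cntn5 was higher by 2.92 ± 0.37 (7.59-fold, adjusted p = 8.52e-06) without overlap. Nrcam was higher by 1.84 ± 0.16 (adjusted p = 8.02e-08), with overlap, but by 0.12 among C57BL/6 subtypes alone, which did not pass. Cntn4 (-1.76 ± 0.29, adjusted p = 0.000179) and L1cam (-1.10 ± 0.16, adjusted p = 5.15e-05) were lower, with overlap. On their other probe sets these 2 differences were 0.20 and -0.11 and did not pass.

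PaxCre amacrine cells had 6 members that passed, 5 of them higher, beside 6.54% of all genes, 4.97% as higher and 1.56% as lower. The higher members were Cntn5 (2.16 ± 0.37), L1cam (1.69 ± 0.16), Nrcam (1.54 ± 0.16), Cntn4 (1.45 ± 0.29) and Cntn3 (1.33 ± 0.31), with adjusted p from 6.45e-07 for L1cam to 0.00672 for Cntn3. Of these, Cntn3 alone did not overlap with the other amacrine arrays, and its call was lost without either PaxCre array. Cntn4 was lost without PaxCre replicate 2. Among C57BL/6 subtypes alone Nrcam was -0.23 and Cntn5 1.21, and neither these nor Cntn3 passed. On the next brightest probe sets L1cam was 0.18, Cntn4 0.32 and Cntn3 0.05, and none of these passed. Nrcam did not pass on its next brightest probe set either. Cntn6 was 4.56-fold lower (-2.19 ± 0.23, adjusted p = 1.96e-06), and both PaxCre arrays lay below all other amacrine arrays.

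MP amacrine cells had 5 members that passed, 1 as higher and 4 as lower, beside 10.4% of all genes, 5.13% as higher and 5.26% as lower. Cntn6 was higher by 1.59 ± 0.23 (3.02-fold, adjusted p = 6.30e-05) without overlap. Nrcam (-1.79 ± 0.16, adjusted p = 2.89e-07), Cntn5 (-1.77 ± 0.37, adjusted p = 0.00181), Cntn1 (-1.15 ± 0.19, adjusted p = 0.000279) and Cntn4 (-1.11 ± 0.29, adjusted p = 0.00907) were lower. Cntn1 did not overlap, at 8.69 and 8.49 in MP cells against at least 8.86 elsewhere, and the Cntn4 call was lost without either MP array or without J amacrine replicate 2. On the next brightest probe sets Nrcam was -0.74 and Cntn4 -0.41, both short of 1 log2 unit. Rod, microglia and bipolar markers were highest among amacrine cells in this subtype, at 9.18, 7.03 and 7.15. Amacrine markers were lowest in it, at 8.97 against 10.54 to 11.46, and 3 of 6 passed as lower (median difference -1.95). The part of these markers in the result was not tested.

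J amacrine cells had 4 members that passed, 2 in each direction, beside 6.06% of all genes, 2.8% as higher and 3.26% as lower. Nrcam (1.83 ± 0.16, adjusted p = 4.74e-07) and L1cam (1.63 ± 0.16, adjusted p = 2.23e-06) were higher. Nrcam was 0.11 among C57BL/6 subtypes alone and L1cam 0.08 on its other probe set, and neither passed there. Cntn5 (-1.59 ± 0.37, adjusted p = 0.00723) and Cntn4 (-1.17 ± 0.29, adjusted p = 0.0117) were lower, and all 4 overlapped with other amacrine arrays. On its other probe set Cntn4 was -0.21 and did not pass. Without J amacrine replicate 1 the count was 2, with Cntn4 and Cntn5 lost. The 5 comparisons of single amacrine subtypes share arrays, since each subtype is among those the others are set against.

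**Figure D3:**
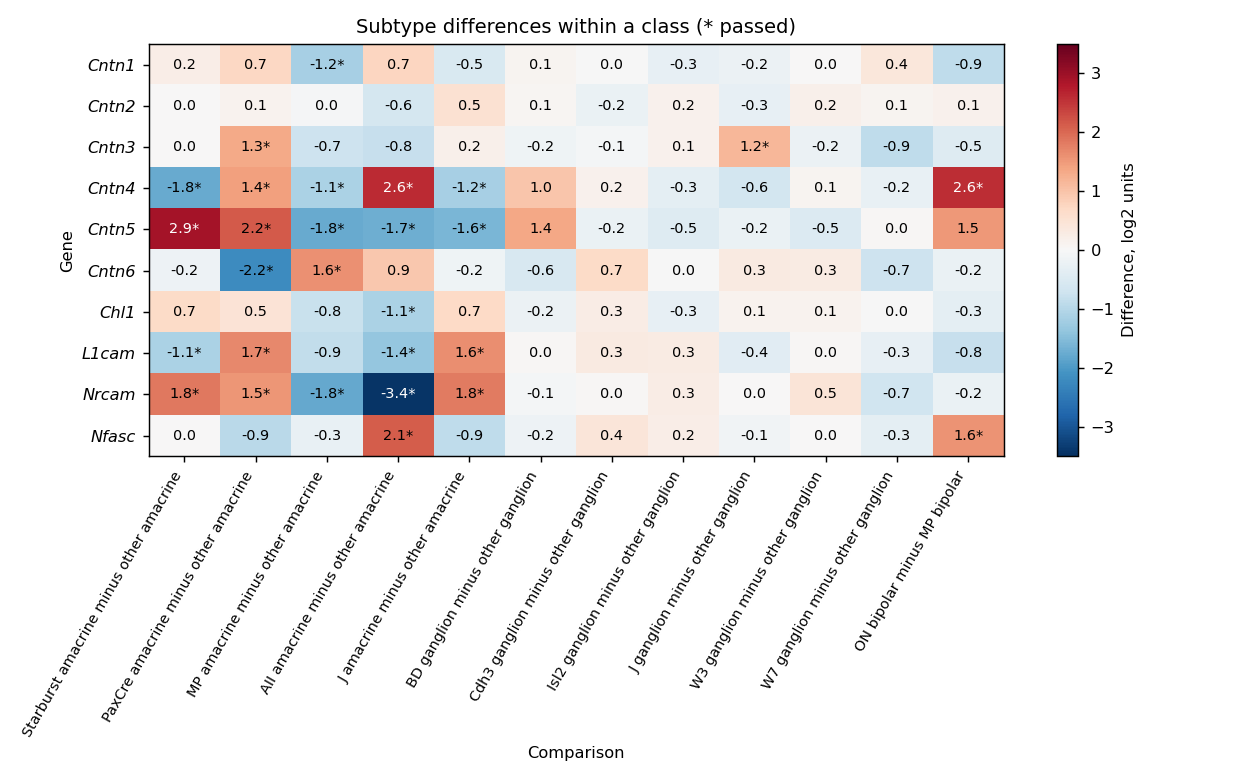
Differences of each subtype from the other subtypes of its class (equal weight for each subtype), in log2 units, for 10 genes in 12 comparisons, with ON minus MP cells for the bipolar class; colour and number give the difference, and a star marks those that passed. Amacrine columns hold 25 stars and the 6 ganglion columns hold 1.

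Among ganglion cell subtypes few genes of any kind passed, and 1 of the members did. By limma 0 of 10 members passed in BD, Cdh3, Isl2, W3 and W7 cells against the other ganglion cells, while at an unadjusted p under 0.05 there were 3, 1, 0, 1 and 4 in that order of subtypes. Of all genes 0.495% passed in BD cells (0.315% as higher, 0.179% as lower), 2.09% in Cdh3 cells (1.26% and 0.824%) and 0.222% in Isl2 cells (0.194% and 0.0287%). The shares were 0.803% in W3 cells (0.344% as higher, 0.459% as lower) and 1.37% in W7 cells (0.681% and 0.688%). In J ganglion cells, where 2.04% of all genes passed (1.63% as higher, 0.416% as lower), Cntn3 passed as higher: the J arrays had 7.76 and 7.28, the other ganglion cell arrays at most 7.12, and the difference was 1.16 ± 0.30 (adjusted p = 0.0454). This call was lost in 20 of 36 other settings and turned to -0.41 on the other Cntn3 probe set. J ganglion cells also had the highest amacrine (7.68), microglia, vessel and Müller glia marker means among ganglion cells. Of these lists 3 of 6, 2 of 9, 1 of 4 and 1 of 8 genes passed as higher in J ganglion cells, and their part in the result was not tested. In BD cells Cntn5 had a difference of 1.36 ± 0.36 (adjusted p = 0.114) and Cntn4 of 0.97 ± 0.28 (adjusted p = 0.179), and without BD replicate 1, which leaves 1 BD array, 2 members passed. Nrcam in W7 cells had 9.73 and 9.80, below all other ganglion cell arrays, with a difference of -0.71 ± 0.15 (adjusted p = 0.0176) that misses 1 log2 unit; 1 member passed in W7 cells without BD replicate 2.

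ON bipolar cells exceeded MP bipolar cells in 2 members, beside 5.03% of all genes, 2.59% as higher and 2.44% as lower. Cntn4 differed by 2.57 ± 0.37 (5.94-fold, adjusted p = 0.000112) and Nfasc by 1.57 ± 0.33 (2.97-fold, adjusted p = 0.00524), and neither overlapped. Both genes are also the 2 that passed as higher in AII amacrine cells. Cntn5, at 5.81 and 6.22 in ON cells and 4.42 and 4.55 in MP cells, had a difference of 1.53 ± 0.46 that did not pass (adjusted p = 0.0597). The Nfasc call was lost without replicate 1 of either bipolar subtype, which left a count of 1.

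Both reporter lines that gave 2 classes allowed class comparisons within a line. J line ganglion cells exceeded J line amacrine cells in 4 members, beside 30.8% of all genes, 18.4% as higher and 12.4% as lower: Chl1 by 3.60 ± 0.32, Cntn5 by 2.86 ± 0.46, Cntn4 by 2.54 ± 0.37 and Cntn1 by 2.40 ± 0.24 (adjusted p from 7.72e-08 for Chl1 to 6.71e-05 for Cntn5), none with overlap. L1cam had 11.28 and 10.67 in J ganglion cells, against 11.10 and 11.03 in J amacrine cells, a difference of -0.09 with a 95% interval of -0.51 to 0.34. In the MP line, bipolar cells differed from amacrine cells in 5 members, 3 as higher and 2 as lower, beside 8.37% of all genes, 3.82% as higher and 4.55% as lower. Cntn1 was higher by 3.11 ± 0.24 (8.62-fold, adjusted p = 5.37e-08), and Nrcam (1.16 ± 0.20, adjusted p = 0.000482) and Cntn4 (1.19 ± 0.37, adjusted p = 0.0443) were also higher, the Cntn4 call being lost in 20 of 35 other settings. L1cam (-1.67 ± 0.20, adjusted p = 1.08e-05) and Chl1 (-1.07 ± 0.32, adjusted p = 0.0386) were lower. The MP count was 2 without MP amacrine replicate 2, and 3 without MP amacrine replicate 1, MP bipolar replicate 1 or either Isl2 ganglion array.

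The class difference in each line was also tested against that among the other subtypes. In the J line 2 members differed, both with a lower value, beside 7.15% of all genes (3.65% higher, 3.51% lower). In the MP line 4 differed, 3 with a higher value and 1 with a lower, beside 8.63% of all genes (4.73% higher, 3.9% lower). The ganglion minus amacrine difference of L1cam was -0.09 in the J line, against 1.95 among the other subtypes, and that of Nrcam was -0.53 against 1.27.

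In the genome, 6 of the members lie next to one another: Cntn3, Chl1, Cntn6 and Cntn4 follow in this order on chromosome 6, and Cntn2 and Nfasc adjoin on chromosome 1, with 0 protein-coding genes between neighbours in RefSeq. Chl1 was lowest in bipolar cells while Cntn6, beside it, was high there. Over the 13 subtype means, as a description, the neighbours Cntn3 and Chl1 had r = 0.46, Cntn4 and Cntn6 -0.17, and Cntn2 and Nfasc -0.12. The 250 bases before the outermost start of 4 genes are shown from RefSeq (GRCm38.p6), 5′ to 3′ along the gene. Chl1 and L1cam were chosen because they moved together between classes, and Cntn5 and Cntn6 because they ran opposite ways among amacrine cells. Capitals mark GGGCGG, the GC box core, on either strand and CAGCTG, an E-box that reads the same on both.
Chl1, chr6:103510626-103510875, plus strand: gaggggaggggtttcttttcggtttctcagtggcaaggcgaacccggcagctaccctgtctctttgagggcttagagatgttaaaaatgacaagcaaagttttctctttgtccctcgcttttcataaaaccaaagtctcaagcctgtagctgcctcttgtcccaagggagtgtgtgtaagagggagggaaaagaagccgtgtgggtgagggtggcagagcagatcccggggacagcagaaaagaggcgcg
L1cam, chrX:73880835-73881084, minus strand: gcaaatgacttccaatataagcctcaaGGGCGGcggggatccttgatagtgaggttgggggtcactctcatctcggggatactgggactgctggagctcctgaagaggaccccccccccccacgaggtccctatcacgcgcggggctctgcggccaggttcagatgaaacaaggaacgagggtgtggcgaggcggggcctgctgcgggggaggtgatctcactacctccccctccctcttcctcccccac
Cntn5, chr9:10904776-10905025, minus strand: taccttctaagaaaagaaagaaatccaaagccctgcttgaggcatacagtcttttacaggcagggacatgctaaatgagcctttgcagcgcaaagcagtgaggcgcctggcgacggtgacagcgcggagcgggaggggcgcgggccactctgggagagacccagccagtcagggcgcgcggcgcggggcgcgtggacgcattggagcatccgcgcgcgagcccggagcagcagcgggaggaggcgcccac
Cntn6, chr6:104492794-104493043, plus strand: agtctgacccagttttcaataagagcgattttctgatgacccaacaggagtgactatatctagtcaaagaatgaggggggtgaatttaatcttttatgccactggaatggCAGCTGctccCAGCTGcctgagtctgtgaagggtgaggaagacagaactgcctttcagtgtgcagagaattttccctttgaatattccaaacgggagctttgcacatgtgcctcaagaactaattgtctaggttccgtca
GGGCGG stood once in the L1cam window and not in those of Chl1, Cntn5 or Cntn6, and 33% of 27025 RefSeq start windows of the same length hold it on either strand. CAGCTG stood 2 times in the Cntn6 window, 4 bases apart, and 12.7% of all windows hold it. Neither TAATTA (4.91% of all windows) nor TATAAA (13%) was found in the windows of any of the 10 members. The Cntn5 window held 24 CpG pairs and that of Cntn6 held 3, against a median of 6 over all windows.

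The other probe sets of the members limit some of these results. L1cam, Cntn4 and Chl1 each had a second probe set that moved the same way as the brightest between ganglion and amacrine cells, by 2.04, 2.48 and 2.43 log2 units, whereas another Chl1 probe set showed no difference (0.00). Of the 26 probe sets, 13 passed in that comparison, beside 19.7% of all probe sets. For Nrcam and Nfasc the next brightest probe sets had differences of -0.95 and -1.14, and a further Nfasc probe set -2.09, against 0.91 and 0.25 for the brightest. For Cntn2 and Cntn3 the next brightest had -0.36 and 1.69, against 1.14 and 0.14.

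Within amacrine and bipolar cells the second probe sets repeated part of the pattern. Nrcam on its second probe set was 10.89 in starburst, 10.68 in J, 10.39 in PaxCre, 9.09 in MP and 7.35 in AII cells, so AII cells were again the lowest. On a dimmer Nrcam probe set MP cells (6.58) lay below AII cells (6.88), and on the dimmest AII cells were the lowest amacrine subtype (5.56). Nfasc on its second probe set was highest in AII cells (9.98) and ON bipolar cells (9.72), with at most 7.88 in the other 11 subtypes. On its dimmest probe set AII cells (7.83) did not stand out, beside 7.83 in PaxCre, 7.83 in starburst and 7.70 in J amacrine cells. Cntn4 on its second probe set was 6.70 in ON and 5.24 in MP bipolar cells, but 5.59 in AII cells and 5.77 in PaxCre cells, close to the other amacrine cells. The second probe set of L1cam split the arrays by class alone, with means between 6.39 and 6.85 for ganglion cells and between 4.36 and 4.73 for all others, PaxCre (4.71) and J amacrine cells (4.63) included, although its brightest probe set put these 2 at ganglion cell levels. The second probe set of Cntn3 split the same way, with means between 5.99 and 6.48 for ganglion cells and between 4.34 and 4.83 elsewhere. This split is also that of the 2 sets of arrays on different scales, and the part of that scale was not tested.

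**Figure D4:**
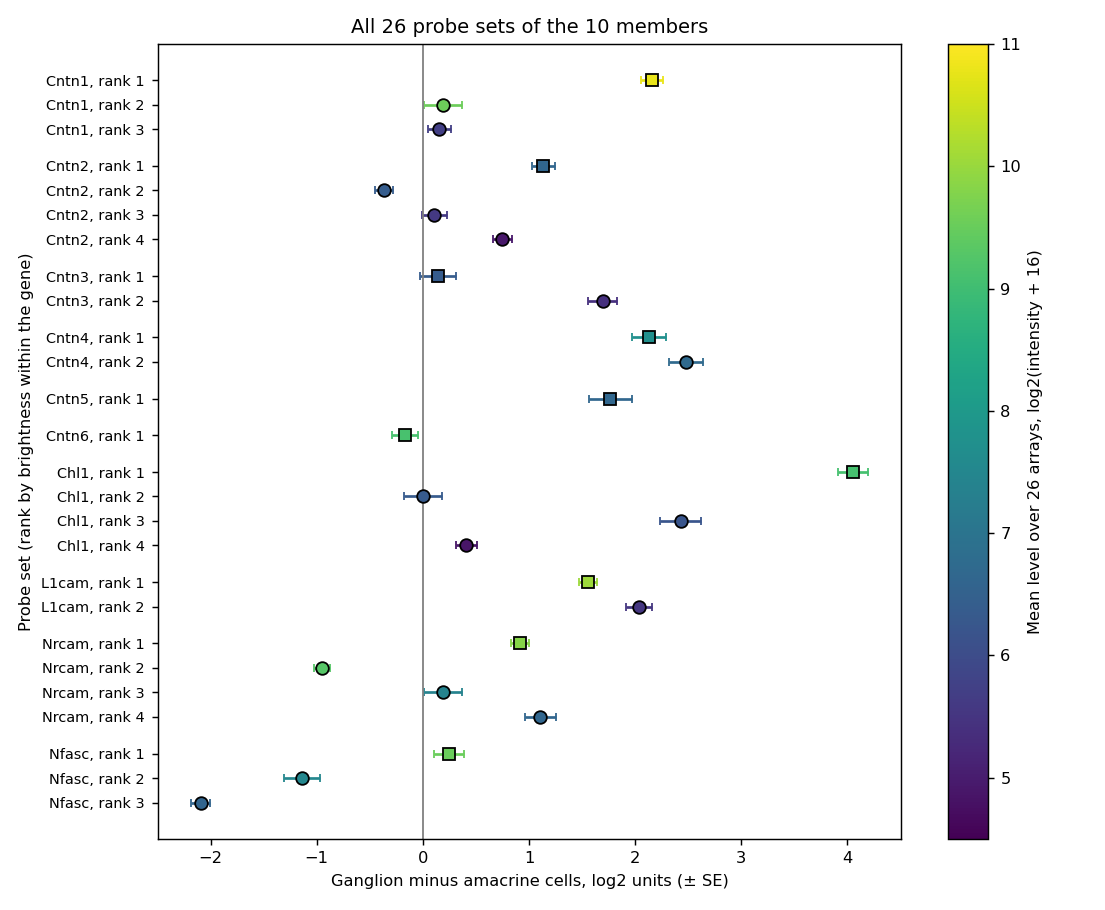
Ganglion minus amacrine difference in log2 units (± SE) for all 26 probe sets, ordered by brightness within each gene, with squares for the brightest and colour for the mean level. The 2 L1cam probe sets lie at 1.56 and 2.04, while those of Nrcam run from -0.95 to 1.11 and those of Chl1 from 0.00 to 4.05.

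As a description over the 13 subtype means, which share arrays and the difference between array sets, Chl1 ran most closely with Cntn2 (Pearson r = 0.90) and L1cam (r = 0.86) among the members, and Cntn5 and Cntn6 ran most oppositely (r = -0.66). The genes outside the families with the most similar pattern were Pcyt1b, Scn3b and Nlgn3 for L1cam (r = 0.97 to 0.996), Gng4, Ttbk1 and Galntl6 for Chl1 (all 0.98), 3110040N11Rik, Map1lc3a and Pex6 for Nrcam (0.96 to 0.97) and Gnb5, Smim15 and Mpi for Nfasc (0.84 to 0.87). For the contactins they were Clstn2, Stx17 and Ccng1 for Cntn1 (0.94 to 0.95), Mgst3, Anapc11 and Mxd3 for Cntn2 (0.97 to 0.98) and Mlxipl, Cmtm3 and Cacna1e for Cntn3 (0.83 to 0.88). They were B930095G15Rik, Gjd2 and Sec23a for Cntn4 (0.88 to 0.91), Rarres2, Sdc1 and Gpr176 for Cntn5 (0.94 to 0.96) and Slc25a36, Rbak and Mtg1 for Cntn6 (0.89 to 0.92).

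Genes of known partners were counted from lists in the same comparisons. Of 7 contactin-associated protein genes 3 could be tested, and Cntnap5a was higher in ganglion than in amacrine cells by 2.28 (adjusted p = 2.38e-12). It was the only one of the 3 that passed, beside 15.8% of all genes as higher and 9% as lower. Cntnap2, whose product sits beside potassium channels on axons, was highest in starburst cells, at 12.53 against 7.72 to 10.26 in the other amacrine subtypes (difference 3.29 ± 0.28, adjusted p = 6.91e-08). It was also higher in ON than in MP bipolar cells, at 11.52 and 9.15 (difference 2.37 ± 0.35). Cntnap4, known to work with Cntn5 in retinal ganglion cells, was higher in starburst cells (1.28) and J amacrine cells (1.20) than in other amacrine cells and lower in AII (-1.54) and MP cells (-1.26).

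Of 8 ankyrin and spectrin genes 7 were tested. Ank1 and Sptb passed as higher in ganglion than in amacrine cells, by 1.02 and 1.41, and 0 as lower, beside 15.8% and 9% of all genes. Ank3, the ankyrin of axon initial segments that anchors Nrcam and Nfasc, was lowest in starburst cells, at 8.76 against 11.07 to 12.12 in the other amacrine subtypes (difference -2.79 ± 0.29, adjusted p = 9.97e-07). In AII cells Ank2 (-2.05), Sptb (-1.95) and Ank1 (-1.67) were lower than in the other amacrine cells. Of all genes 10.5% passed as lower there and 5.73% as higher.

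Of 12 contactin partner genes 10 were tested, and between ganglion and amacrine cells 2 passed as higher (Bcan by 2.33, Notch1 by 1.57) and 2 as lower (Tnc and Ptprg, differences -1.41 and -1.15), beside the same 15.8% and 9%. Tnc, the gene of the matrix protein tenascin-C, was highest in PaxCre cells, at 11.45 against 5.02 to 8.69 in the other amacrine subtypes (difference 5.33 ± 0.31, adjusted p = 1.41e-09). Its relative Tnr was lowest in starburst cells, at 5.24 against 8.45 to 10.55 (difference -4.21 ± 0.32, adjusted p = 1.73e-08). App, a partner of Cntn4, was lower in bipolar than in ganglion cells by 1.61 log2 units (difference -1.61, adjusted p = 2.31e-08).

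All 15 L1 family co-receptor and signalling genes were tested. Between ganglion and amacrine cells 6 passed as higher, among them Nrp1 (2.76), Msn (2.52), Dcx (2.51) and Dlg3 (2.08), and 3 as lower (Plxna3, Ezr and Rdx), beside 15.8% and 9% of all genes, with a median of 0.68 over the list against 0.00 over all genes. Msn, which microglia also express, was 9.89 in J ganglion cells and 6.25 in W3 ganglion cells, the subtypes with the highest and the lowest microglia marker mean. Cdh3 cells had Msn at 8.60 and BD cells at 7.98, with microglia marker means of 7.94 and 8.84. The part of microglia in this was not tested. Dcx, a microtubule protein of young neurons that binds neurofascin, was high in PaxCre (11.87) and J amacrine cells (10.55), against 5.80 to 8.21 in the other 3. In PaxCre and J amacrine cells L1cam reached ganglion cell levels on its brightest probe set, but not on its other one. Nrp1 and Nrp2, semaphorin receptors that bind L1 family proteins, were lowest in starburst cells among amacrine subtypes, at 6.00 and 5.95. Of the 3 proteases that shed these molecules, Bace1 passed as lower in ganglion than in amacrine cells (difference -1.17, adjusted p = 9.06e-07), beside 9% of all genes. Adam10 and Adam17 did not pass.

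**Figure D5:**
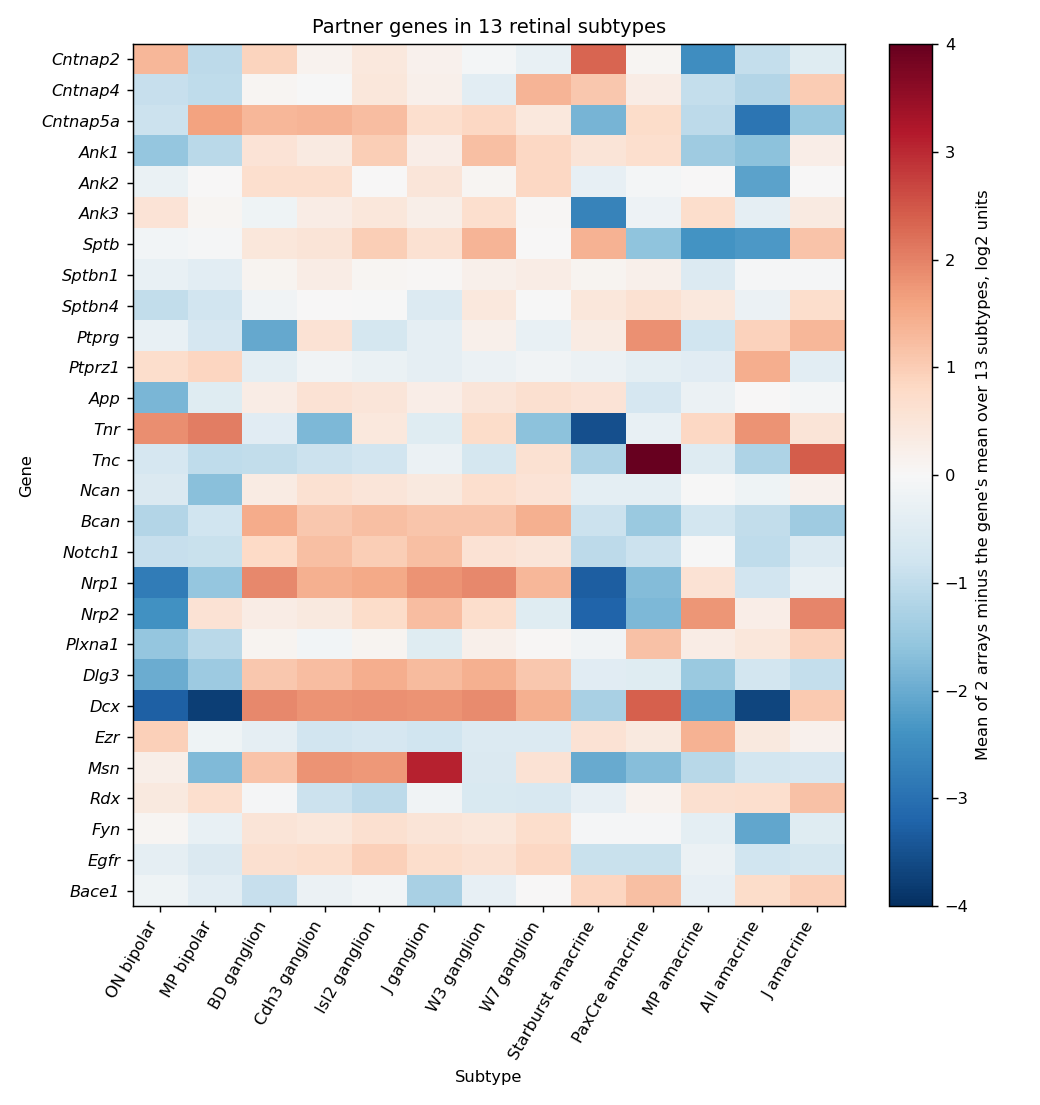
Subtype means of partner genes in log2 units relative to each gene's mean over 13 subtypes, bipolar subtypes on the left, ganglion cells in the middle and amacrine cells on the right. Red marks subtypes above and blue those below the gene's mean; Tnc stands out in PaxCre cells (level 11.45), Cntnap2 in starburst cells (12.53) and Dcx is low in AII and bipolar cells (5.80, 6.22 and 5.73).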

How the data were processed

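Each sample was 1 array of a sorted retinal neuron subtype, grouped by the labels. The authors deposited linear intensities. How they were scaled, and with which software, is not given in the sources used here. Each value was taken as log2(intensity + 16) and quantile normalized over 26 arrays, 64 control probe sets were left out, and the brightest of a gene's probe sets was used. Symbols came from the array's probe table, updated by gene identifier, in which 34945 probe sets had 1 symbol, 932 several and 9160 none. Genes with at least 2 of 26 arrays above the overall median (6.14) entered the test, made with limma 3.58.1 (R 4.3.3) on 1 mean per subtype, subtypes weighted equally within a side, 13 residual degrees of freedom, two-sided tests and Benjamini-Hochberg adjustment within each of 20 comparisons. The fit was tested on simulated data. With 2 arrays a subtype, their number limits precision. The genes named are the 10 members, 3 similar genes each, and listed partners that passed. The members, lists and tests were chosen with earlier results of these data known. Promoter windows were searched in Python 3.11.15. Alternatives covered normalization, pseudocount, filter, probe set, strain, replicate block, array weights, subtype means and each array left out.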

Additional observations from a re-analysis of the deposited data

Results flagged for a closer look

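In the line comparisons, 6 class differences departed from those among the other subtypes by a test of the difference itself (limma, adjusted over 13951 genes), and no cause was tested for any of them. In the J line, L1cam had a ganglion minus amacrine difference of -0.09, against 1.95 among the other subtypes, so that the line departed by -2.04 ± 0.22 (adjusted p = 2.09e-05). Nrcam had -0.53 in the J line, against 1.27, a departure of -1.81 ± 0.22 (adjusted p = 5.92e-05). On the next brightest probe set the L1cam departure was -0.34, and with C57BL/6 subtypes alone that of Nrcam was -0.08, and neither passed there.

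In the MP line, bipolar minus amacrine differences were set against ON bipolar cells minus the other 4 amacrine subtypes. Cntn1 had 3.11 in the MP line, against 1.06, a departure of 2.05 ± 0.31 (adjusted p = 0.000206). Nrcam had 1.16, against -0.85, a departure of 2.02 ± 0.25 (adjusted p = 3.28e-05), which turned the sign of the class difference. L1cam had -1.67, against -3.34, a departure of 1.67 ± 0.26 (adjusted p = 0.000262), but of 0.38 on the next brightest probe set, which did not pass. Cntn6 had -0.56, against 0.80, a departure of -1.37 ± 0.37 (adjusted p = 0.0221), and this call was lost without either MP amacrine array and without replicate 1 of either bipolar subtype, and with columns as deposited.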

How the results depend on the processing

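Of 61 member calls, 17 kept their direction and passed in every other setting run, among them L1cam between bipolar and ganglion cells, Cntn4 between ganglion and amacrine cells, Cntn5 between GABAergic and glycinergic cells, and Nrcam and Nfasc in AII cells. Not every call met every setting. Cntn5 and Cntn6 have a single probe set, so no other could be tried. Comparisons with AII or MP cells alone on a side were not run with C57BL/6 subtypes alone. Subtype means as units were run for the class and transmitter comparisons only. Over 2219 pairs of a call and a setting, 2073 kept both. Counts of members that passed moved by over 1.5 times as follows. With columns as deposited or normalized within each set, 7 passed in the J line comparison of ganglion with amacrine cells. Of all genes 5245 of 14048 and 5250 of 14038 passed there, 83.4% and 83.8% of them as higher. The median gene stood at 0.57 and 0.56 log2 units in these settings. With a pseudocount of 64, 2 passed in J amacrine cells, 0 in J ganglion cells and 3 in the MP line, and without the filter 0 passed in J ganglion cells. With the median over probe sets, 2 passed for bipolar against amacrine cells, 2 in starburst, 2 in J amacrine, 3 in PaxCre, 0 in J ganglion cells and 2 in the MP line. With array weights 2 passed in J amacrine cells. With subtype means as units 3 passed for bipolar against ganglion cells and 1 for GABAergic against glycinergic cells. With C57BL/6 subtypes alone, 8 passed for bipolar against amacrine cells, 2 in J amacrine and 3 in PaxCre cells. The first of these sets ON bipolar cells alone against starburst, PaxCre and J amacrine cells. Among all these settings, shares of all genes were counted only with columns as deposited and with normalization within each set. When each array was left out in turn, counts ran from 2 to 4 in J amacrine, 0 to 2 in BD ganglion, 0 to 1 in J ganglion, 0 to 1 in W7 ganglion cells, 1 to 3 for ON against MP bipolar cells and 2 to 5 in the MP line, where a lone remaining array is assumed to vary like the other groups.

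Signs turned mostly with the probe set. On the next brightest one, differences were -0.36 for Cntn2 between ganglion and amacrine cells, and 0.030 for Chl1 and 0.10 for L1cam between bipolar and amacrine cells. Between bipolar and ganglion cells they were 0.30 for Cntn2, 0.027 for Chl1 and 1.20 for Nrcam. They were 0.20 for Cntn4 in starburst, 0.11 for L1cam in AII and -0.41 for Cntn3 in J ganglion cells. In the J line they were -0.78 for Cntn1 and -0.52 for Chl1, and in the MP line 0.21 for Chl1 and 0.37 for L1cam. With the median over probe sets, Nrcam between bipolar and ganglion cells was 0.17 and Cntn1 in the J line -0.19. With C57BL/6 subtypes alone, Nrcam was -0.11 between GABAergic and glycinergic cells and -0.23 in PaxCre cells. The causes were not tested.

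The labels' replicate numbers were not used to pair the samples in the main fit. Over 78 pairs of groups, deviations from group means correlated at -0.23 to 0.37 with a median of 0.03, and 21 pairs exceeded 0.1. These values cannot tell whether some of the groups were paired. With the replicate number as a block, 3 members passed between ON and MP bipolar cells and no other count changed.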
